A study of Mus musculus with 90 samples.

Results

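The genes described here are 40 nucleolar ribosome biogenesis factors, chosen by symbol for their place in the pathway, and all were found among the 35869 gene symbols of the table. Ribosomes are built in the nucleolus. RNA polymerase I copies the ribosomal DNA into a long precursor, small nucleolar ribonucleoprotein particles (snoRNPs) methylate and pseudouridylate that precursor, and separate sets of assembly factors fold and cleave it into the large and the small subunit. Growing and dividing cells need much of this machinery, the MYC transcription factor raises the transcription of many of its genes, and in mouse blood stem cells loss of Runx1 has been reported to lower ribosome biogenesis. The 40 factors are given by step. There are 4 proteins of box C/D snoRNPs, 4 of box H/ACA snoRNPs, the snoRNP chaperone Nolc1 and 3 subunits of RNA polymerase I. The others are 4 proteins of the nucleolar granule, 12 large subunit factors and 12 small subunit factors. In the GENCODE M21 annotation of GRCm38 the genes lie on 16 chromosomes, 8 of them hold 23 snoRNA genes inside, and 16 overlap an exon of a gene on the other strand.

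Single cells were compared with and without the transcription factor RUNX1. Mice of the KO group were MxCre1+/-,RUNX1f/f and those of the WT group MxCre1-/-,RUNX1f/f, so that both carry the floxed allele and only KO mice carry Mx1-Cre, a recombinase that poly(I:C) switches on in blood and other interferon-responsive cells. All received poly(I:C) 4 times, and 4 weeks later CD41-positive hematopoietic stem cells were sorted from bone marrow and kept in culture for 2 days. By their looks, cells were then picked either as megakaryocytes (MK), which give rise to platelets, or as other cells (NMK), and 1 SMART-Seq library was made per cell. The table without the authors' outliers holds 5 KO MK, 6 WT MK, 13 KO NMK and 9 WT NMK cells.

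Values are TPM, transcript abundances scaled per gene length and to the same total in every cell, so the depth is unknown. Differences are in mean log2(TPM + 1), a scale that understates the change of low genes, and are set beside the pooled SD between cells. The animal and culture of each cell are not in the labels, so a group is 1 sample and no test between groups was possible. A difference of 1 or more, at a mean of at least 1 TPM in a group, is counted as higher or lower. All 40 factors passed this minimum in each of the 4 comparisons made. The list score of a cell is its mean log2(TPM + 1) over the 40 factors.

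Several libraries stood apart. Runx1 was 8.9 to 47.5 TPM in KO MK, 7.6 to 22.2 TPM in WT MK, 0 to 41.5 TPM in KO NMK and 0 to 15.7 TPM in WT NMK cells, a whole-gene value that cannot show the loss of the floxed part. All 12 megakaryocyte markers were above 0 in KO MK 1B, B1-3 and 1A, whose marker sums were 17994.9 to 54200.5 TPM, against sums of 13193.4 to 21711.5 TPM in WT MK cells. KO MK B1-4 and 2 went against their label, with sums of 116.4 and 320.3 TPM, inside the ranges of 56.2 to 894.7 TPM in KO NMK and 20.8 to 1510.3 TPM in WT NMK cells, and with 5 and 3 markers at 0. KO NMK B1-1b and B1-2a had housekeeping scores of 4.70 and 1.51, against 8.78 or higher in all other cells, and B1-1b held 91.6% of its TPM on mitochondrial genes. The 5 WT MK cells whose titles lack the prefix B1 resembled each other closely, with correlations across genes of 0.954 to 0.968, against 0.888 to 0.904 with WT MK B1-1 and 0.712 to 0.907 among KO MK cells. Whether those 5 libraries come from separate cells was not tested. List score differences below that rest on any of these libraries are also given without them or with the 5 averaged. Some of the steps and factors that this changes are named. Genes above 0 numbered 11896 to 14487 in KO MK, 14089 to 15252 in WT MK, 3011 to 10987 in KO NMK and 5475 to 11715 in WT NMK cells.

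Ranked by mean TPM, 3 proteins led the list in all 4 groups. Nop10 and Nhp2, both core proteins of box H/ACA snoRNPs, and Npm1, the nucleophosmin chaperone of the granule, together held 51.3% of the summed TPM of the 40 factors in KO MK, 58.2% in WT MK, 46.7% in KO NMK and 68.2% in WT NMK cells. The sum itself was 2986 TPM ± 973 (SD, n = 5) in KO MK, 6748 TPM ± 1405 (SD, n = 6) in WT MK, 5606 TPM ± 2138 (SD, n = 13) in KO NMK and 6104 TPM ± 1284 (SD, n = 9) in WT NMK cells. Without KO NMK B1-1b and B1-2a the KO NMK sum was 6204 TPM ± 1615 (SD, n = 11), no longer below that of WT NMK cells. The KO NMK share of 46.7% includes both of these cells. The lowest sum among WT MK cells, 4019 TPM in B1-1, lay just under the highest among KO MK cells, 4035 TPM in cell 2. At the low end stood Polr1a, the largest subunit of RNA polymerase I, at a mean of 0.32 TPM in KO MK cells, and Noc3l, a large subunit factor, at a mean of 0.41 TPM in WT NMK cells.

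**Figure D1:**
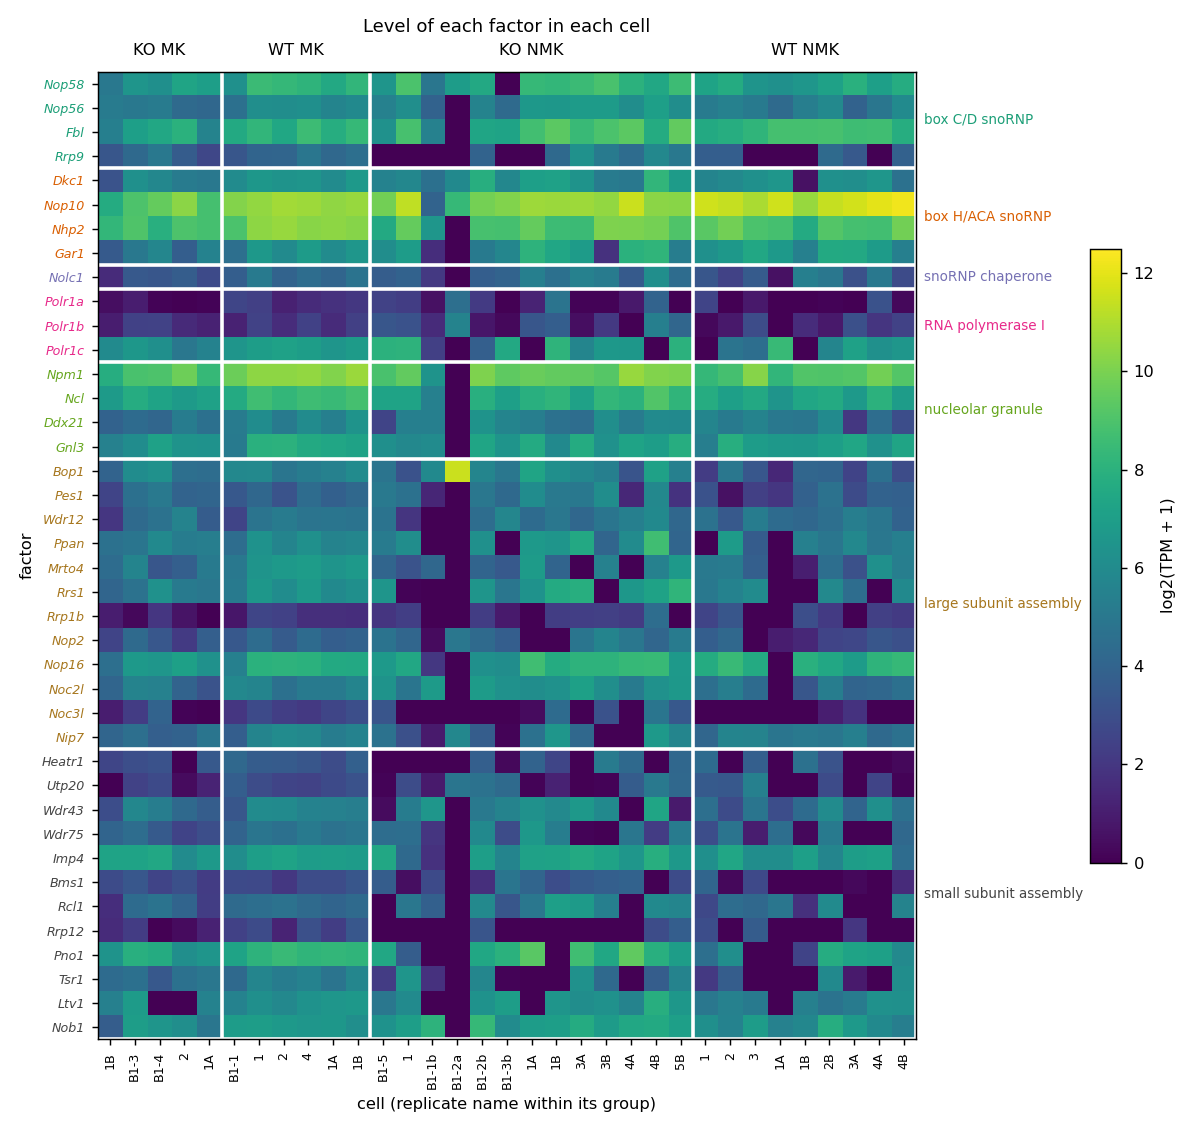
Level of each of the 40 factors (rows, grouped and coloured by step) in each of the 33 cells (columns, grouped as KO MK, WT MK, KO NMK and WT NMK), as log2(TPM + 1) from dark for 0 to yellow for the highest. The rows of Nop10, Nhp2 and Npm1 are the brightest, WT MK cells have no factor at 0, and KO NMK B1-2a has 31 factors at 0 beside Bop1 at 2889.5 TPM.

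KO MK cells were lower than WT MK cells at all 7 steps, while among cells with the title prefix B1 the list score differed by 0.14. The list score was 3.91 in cell 1B, 5.15 in B1-3, 4.92 in B1-4, 4.35 in cell 2 and 4.38 in cell 1A of the KO MK group. WT MK cells had scores of 4.90 in B1-1 and 5.50 to 5.90 in the other 5 cells. The difference was -1.04 against a pooled SD of 0.43, and 3 of 5 KO MK cells lay below every WT MK cell. Of the 40 factors, 25 were lower by 1 or more and 0 were higher by 1 or more, where 9.27% of the 11796 genes compared were lower and 12.4% were higher. The median of the 40 differences was -1.09, beside 0.09 over all genes, and 37 of 40 were below 0, beside 45.3% of all genes. In 30 factors, all lower, the difference exceeded the pooled SD, a count for which the share of all genes was not computed. The 5 WT MK libraries that resemble each other closely enter this SD. The median SD over the 40 factors was 0.50 in WT MK and 0.89 in KO MK cells.

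The title prefix divides this result. Among cells without the prefix B1, 3 KO MK cells averaged 4.21 and 5 WT MK cells 5.72, a difference of -1.51 with all 40 factors below 0 and 34 lower by 1 or more, beside 13.2% of genes lower. Among cells with the prefix, 2 KO MK cells averaged 5.04 and the single WT MK cell 4.90, a difference of 0.14 with 18 of 40 factors below 0, 9 higher and 5 lower by 1 or more, beside 20.1% of genes higher and 20.6% lower. What the prefix stands for is not given in the labels. Its share in the difference was not tested, as 1 WT MK cell carries it. Averaging the 5 alike WT MK libraries into 1 cell gave -0.78 and left 15 factors lower by 1 or more, beside 13.4% of genes. Without KO MK B1-4 and 2 the difference was -1.10, with 24 factors lower, beside 9.58% of genes, and with the 5 libraries also averaged it was -0.84 with 14 lower, beside 13.5% of genes. All 7 steps were below 0 with the averaging alone and without the 2 KO MK cells alone. In the full table, which adds the libraries the authors left out, the difference was -0.60 over 9 KO MK and 11 WT MK cells. There 8 factors were lower by 1 or more, beside 2.95% of genes. The added WT MK libraries had housekeeping scores of 3.44 to 5.82 and list scores of 1.12 to 2.63. The added KO MK libraries had housekeeping scores of 4.13 to 9.22 and list scores of 0.58 to 2.71. Their part in the value of -0.60 was not tested.

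**Figure D2:**
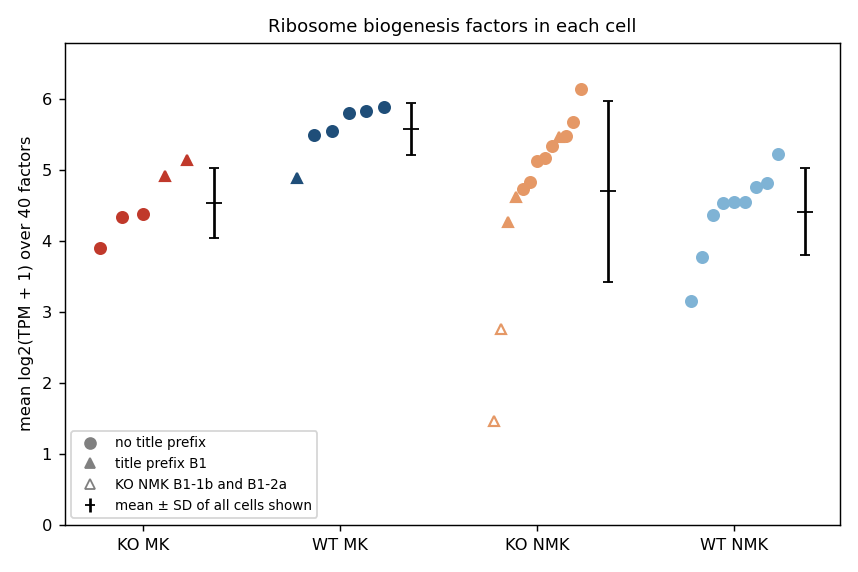
List score (mean log2(TPM + 1) over the 40 factors) of each cell in the groups KO MK, WT MK, KO NMK and WT NMK, with bars for the mean ± SD of all cells shown, triangles for cells with the title prefix B1 and open symbols for KO NMK B1-1b and B1-2a. KO MK cells sit at 3.91 to 5.15 and WT MK cells at 4.90 to 5.90, and the triangles of the 2 groups lie close together.

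Box H/ACA snoRNPs, which guide pseudouridylation of ribosomal RNA, showed the largest of the 7 step differences over all MK cells, at -1.42 (SD 0.56). All 4 of their proteins were lower in KO MK than in WT MK cells by 1 or more. Nhp2 had 312.0, 535.9, 239.3, 516.8 and 445.1 TPM in KO MK 1B, B1-3, B1-4, 2 and 1A, and in WT MK cells a lowest value of 502.5, a median of 1281.6 and a highest value of 1543.1 TPM. Only the lowest WT MK cell, B1-1, fell among the KO MK cells, and the difference was -1.52 (SD 0.55). Nop10 had 205.3, 519.2, 749.1, 1285.2 and 448.4 TPM in the same KO MK cells, against 1158.8, 1472.1 and 1768.6 TPM as the lowest, median and highest value in WT MK cells. Cell 2 alone of the KO MK group reached the WT MK range, and the difference was -1.44 (SD 0.67). Dkc1, the dyskerin pseudouridine synthase, and Gar1 differed by -1.30 (SD 0.81) and -1.40 (SD 0.93). The step score of KO MK cells was 6.87 ± 0.68 against 8.29 ± 0.44 in WT MK cells, and all 5 KO MK cells lay below all 6 WT MK cells. Within the title prefixes the step differed by -1.87 without B1 and by -0.14 with it. Its rank depended on the libraries. The chaperone step, Nolc1 alone, differed by -1.73 against -1.61 for box H/ACA without KO MK B1-4 and 2. With the 5 alike WT MK libraries averaged these values were -1.15 and -1.08. Within prefix B1, RNA polymerase I and Nolc1 both differed by -0.29.

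Box C/D snoRNPs guide methylation of the ribose of ribosomal RNA. Nop58, a core protein whose introns hold 4 snoRNA genes in the annotation, had 30.7, 91.8, 73.2, 155.4 and 126.6 TPM in KO MK 1B, B1-3, B1-4, 2 and 1A, against 77.1, 285.8 and 370.9 TPM as the lowest, median and highest value in WT MK cells. The 5 WT MK cells above B1-1 were all higher than every KO MK cell, and the difference was -1.44 (SD 0.86), or 0.09 within prefix B1. Fibrillarin (Fbl), the methyltransferase and the most abundant of these proteins, had 41.8 to 248.5 TPM with a median of 130.8 in KO MK, against 172.2 to 384.2 TPM with a median of 258.2 in WT MK cells, a difference of -1.30 (SD 0.84). Nop56 differed by -1.01 and Rrp9, which serves the U3 snoRNP, by -0.40, less than its SD of 0.72. The chaperone Nolc1 (Nopp140), which helps assemble both classes of particle, had 1.9, 10.2, 9.3, 11.7 and 6.0 TPM in the 5 KO MK cells, against 12.1 TPM as the lowest and 33.0 TPM as the highest value in WT MK cells. The groups did not overlap for Nolc1, which differed by -1.37 (SD 0.70), nor for Polr1a. Such a gap, with every KO MK cell below every WT MK cell, was found in these 2 of 40 factors and in 1.85% of all genes.

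RNA polymerase I was represented by 3 of its subunits. Polr1c, which RNA polymerase III also contains, had 61.9, 97.1, 74.7, 30.4 and 46.3 TPM in KO MK 1B, B1-3, B1-4, 2 and 1A, against 89.4, 118.1 and 140.7 TPM as the lowest, median and highest value in WT MK cells. Cell B1-3 alone reached the WT MK range, and the difference was -0.95 (SD 0.46). Polr1a was at 0 to 1.0 TPM in KO MK and 1.2 to 5.2 TPM in WT MK cells, a difference of -1.56 (SD 0.49) between low values. Polr1b, the second largest subunit, was at 1.0 to 4.6 TPM in KO MK and 1.3 to 4.5 TPM in WT MK cells and differed by -0.21 (SD 0.62).

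Transcripts of the nucleolar granule proteins were lower too. Npm1 had 218.1, 487.4, 514.6, 853.2 and 327.3 TPM in KO MK 1B, B1-3, B1-4, 2 and 1A, against 821.5, 1315.4 and 1553.1 TPM as the lowest, median and highest value in WT MK cells. One KO MK cell, cell 2, lay above the lowest WT MK cell, and the difference was -1.50 (SD 0.55). Npm1 has processed copies elsewhere in the mouse genome, so its value depends on how the authors assigned reads among them, which is not given in the sources used here. Nucleolin (Ncl), which binds nascent ribosomal RNA, differed by -1.26 (SD 0.40) and the RNA helicase Ddx21 by -1.23 (SD 0.52). Gnl3 (nucleostemin), a GTPase of stem and dividing cells, differed by -0.92 (SD 0.89), and was 1.48 higher within prefix B1.

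Among the 12 large subunit factors 6 were lower by 1 or more in KO MK cells. Mrto4, which holds the place of the stalk protein on the forming subunit, had 20.6, 49.5, 9.0, 13.0 and 33.6 TPM in KO MK 1B, B1-3, B1-4, 2 and 1A, against 30.6, 95.6 and 117.3 TPM as the lowest, median and highest value in WT MK cells. The 5 WT MK cells without the prefix had 86.6 TPM or more, B1-1 lay among the KO MK cells, and the difference was -1.91 (SD 0.82). Nop16, the most abundant of these factors in WT MK cells, had 22.9 to 138.5 TPM in KO MK and 43.1 to 273.0 TPM in WT MK cells and differed by -1.16 (SD 0.99). The 3 proteins of the PeBoW complex, Pes1, Bop1 and Wdr12, which serve processing of the large subunit RNA, differed by 0.17, -0.48 and -0.45, each by less than its SD. The step differed by -0.84 (SD 0.53), by -1.40 without the prefix B1 and by 0.64 with it.

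Small subunit factors were lower in 7 of 12 cases. Pno1, which acts in late cleavage of the small subunit RNA with Nob1, had 83.4, 236.2, 204.5, 70.6 and 90.0 TPM in KO MK 1B, B1-3, B1-4, 2 and 1A, against 152.7, 289.6 and 356.7 TPM as the lowest, median and highest value in WT MK cells. The 2 KO MK cells with the prefix B1 were above the WT MK cell with it, and the difference was -1.15 (SD 0.62), or 0.52 within that prefix. Ltv1, an export and late assembly factor, had 42.4, 115.2, 0, 0 and 45.5 TPM in the 5 KO MK cells, against 46.0, 78.5 and 101.4 TPM as the lowest, median and highest value in WT MK cells. Its difference of -2.64 (SD 2.23) rested on the cells listed at 0, KO MK B1-4 and 2, and was -0.26 without them. The U3 particle component Imp4 and the GTPase Bms1 differed by 0.11 (SD 0.49) and 0.03 (SD 0.43). Of the 40 factors, 5 were lower by 1 or more within both title prefixes, beside 4.61% of genes, namely Polr1a and the small subunit factors Heatr1, Utp20, Rrp12 and Ltv1. Each prefix holds 1 of the KO MK cells B1-4 and 2, and without both cells Polr1a and Utp20 differed by -1.37 and -1.69, Heatr1 by -0.56, Rrp12 by -0.89 and Ltv1 by -0.26.

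Single factors depended on the doubted MK libraries. Without KO MK B1-4 and 2, Nop10 differed by -2.01, Fbl by -1.99 and Npm1 by -1.91 between KO MK and WT MK cells, and Mrto4 by -1.31. In all, 6 factors were then no longer lower by 1 or more, and 5 others were, among them Gnl3 at -1.24 and Wdr12 at -1.18. The small subunit step was -0.83 and the box H/ACA step -1.61. With the 5 alike WT MK libraries averaged instead, 11 factors were no longer lower by 1 or more, among them Nop58 at -0.83, Gar1 at -0.80, Pno1 at -0.83 and Nop16 at -0.38. Box H/ACA snoRNPs then differed by -1.08, box C/D snoRNPs by -0.66 and the large subunit step by -0.50.

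**Figure D3:**
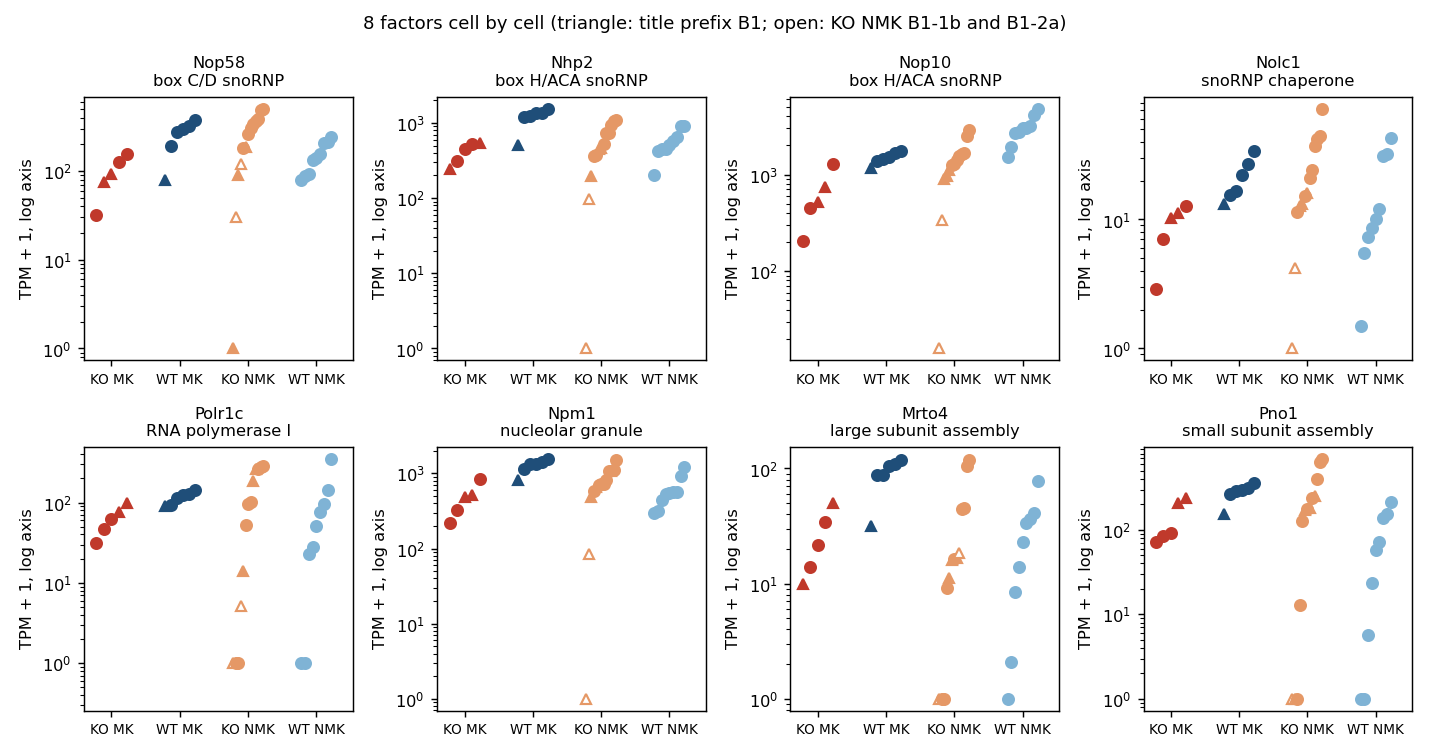
TPM + 1 on a log axis in every cell of KO MK, WT MK, KO NMK and WT NMK for 8 factors that cover all 7 steps, with triangles for the title prefix B1 and open symbols for KO NMK B1-1b and B1-2a. For Nolc1 the highest KO MK cell has 11.7 TPM and the lowest WT MK cell 12.1 TPM, and Nop10 is highest in WT NMK cells, at 1516.7 to 4810.3 TPM.

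**Figure D4:**
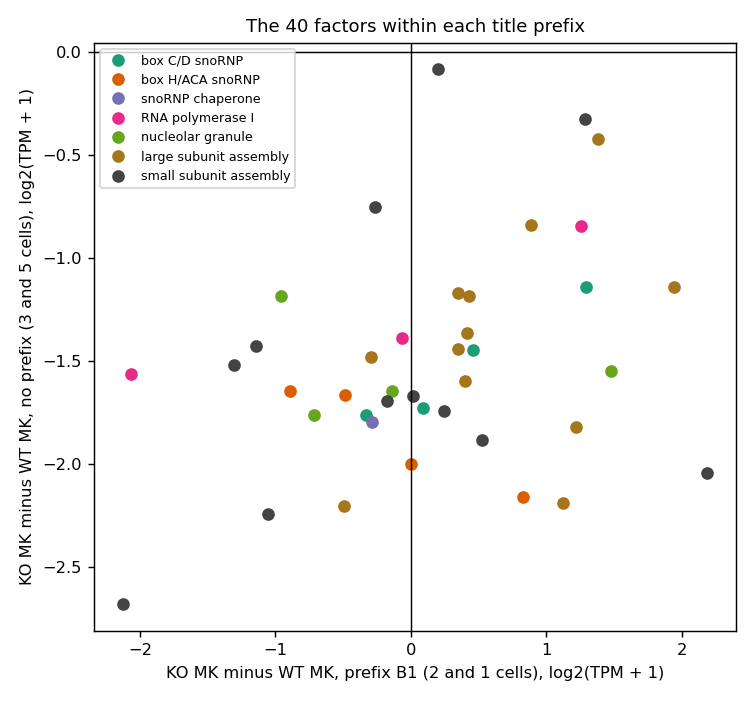
Difference between KO MK and WT MK cells for each of the 40 factors, in log2(TPM + 1), among cells with the title prefix B1 (2 and 1 cells, horizontal axis) and without it (3 and 5 cells, vertical axis), coloured by step. All 40 points lie below 0 on the vertical axis, while 18 lie below 0 on the horizontal axis.

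Promoter sequence was compared because many of these genes differed in the same direction in KO MK cells. The window was the 250 bases upstream of the RefSeq start in build GRCm38.p6, found for 35 of the 40 factors. Searched on both strands were the E-box CACGTG, which MYC binds, and the hexamers TGTGGT and TGCGGT of RUNX proteins. The E-box was found in 2 of 35 factors (5.71%), beside 6.86% of 27025 genes with a window and 9.72% of the 8393 compared between KO MK and WT MK cells. RUNX hexamers were found in 8 of 35 factors (22.9%), beside 20.9% and 20.4% in the same sets of genes. Among the 21 factors with a window that were lower by 1 or more in KO MK cells, 0 had an E-box and 4 (19.0%) a RUNX hexamer. A match of letters is a description, and no match says only that these letters are not in the window.

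Shown are the windows of Nop10, Nolc1 and Nop56, which were lower in KO MK cells, and of Nop2 and Pes1, which were not lower by 1. Each window holds 0 bases of annotated exon and is given on the strand of its gene, with RUNX hexamers or E-boxes in capitals. The windows are chr2:112261676-112261925 (+) for Nop10, chr19:46075597-46075846 (+) for Nolc1, chr2:130274162-130274411 (+) for Nop56, chr6:125131633-125131882 (+) for Nop2 and chr11:3963725-3963974 (+) for Pes1.
Nop10: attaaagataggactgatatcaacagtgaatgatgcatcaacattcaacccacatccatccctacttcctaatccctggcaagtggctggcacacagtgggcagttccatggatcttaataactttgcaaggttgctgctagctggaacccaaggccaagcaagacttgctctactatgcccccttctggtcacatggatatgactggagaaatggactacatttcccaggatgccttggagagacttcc
Nolc1: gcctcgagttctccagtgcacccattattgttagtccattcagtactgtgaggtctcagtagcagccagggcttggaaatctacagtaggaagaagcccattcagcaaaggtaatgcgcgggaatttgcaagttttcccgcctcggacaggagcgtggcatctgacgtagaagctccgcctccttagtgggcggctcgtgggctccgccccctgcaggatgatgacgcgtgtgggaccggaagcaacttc
Nop56: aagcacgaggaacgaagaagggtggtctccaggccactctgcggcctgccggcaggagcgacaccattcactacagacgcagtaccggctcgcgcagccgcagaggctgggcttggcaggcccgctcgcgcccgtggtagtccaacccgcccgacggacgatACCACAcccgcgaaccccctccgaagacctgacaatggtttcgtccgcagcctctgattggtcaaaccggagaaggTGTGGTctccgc
Nop2: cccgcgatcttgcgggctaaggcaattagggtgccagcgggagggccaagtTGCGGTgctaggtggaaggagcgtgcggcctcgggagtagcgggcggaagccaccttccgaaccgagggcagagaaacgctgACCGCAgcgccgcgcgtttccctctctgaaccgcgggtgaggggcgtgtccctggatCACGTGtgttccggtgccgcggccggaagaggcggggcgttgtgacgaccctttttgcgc
Pes1: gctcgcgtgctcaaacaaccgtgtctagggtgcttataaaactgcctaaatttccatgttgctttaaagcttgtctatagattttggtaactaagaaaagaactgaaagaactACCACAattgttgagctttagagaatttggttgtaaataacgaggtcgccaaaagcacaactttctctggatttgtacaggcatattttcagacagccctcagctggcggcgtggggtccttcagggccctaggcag
Neither motif was found in the windows of Nop10 and Nolc1. In Nop56 the hexamers start 88 and 12 bases before the gene start. Its difference between KO MK and WT MK cells, -1.01, was just past the limit. It was -0.995 without KO MK B1-4 and 2, -0.56 with the 5 alike WT MK libraries averaged and 0.45 within prefix B1. Nop2, an RNA methyltransferase of the large subunit, has hexamers that start at 199 and 117 bases and an E-box that starts at 60 bases before the gene start, and it differed by -0.67 (SD 0.67) between KO MK and WT MK cells. The hexamer of Pes1 starts at 137 bases before it.

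Other genes of the pathway, not among the 40, differed in the same direction by less. Of 94 further polymerase I, small subunit and large subunit factors, 91 reached 1 TPM. Between KO MK and WT MK cells 15 were lower by 1 or more and 0 higher, beside 9.27% and 12.4% of all genes. Their median difference was -0.44. At a mean of 10 TPM or more, the gene farthest from 0 in each of the 3 lists was Rrp15 at -1.91 (SD 1.15), Dimt1 at -1.30 (SD 1.38) or Cd3eap, of the polymerase I list, at -0.90 (SD 0.91). All 79 cytosolic ribosomal protein genes compared were below 0, and their score differed by -0.73 (SD 0.29), with every KO MK cell below every WT MK cell. The housekeeping score differed by 0.18 (SD 0.14). Scores of mitosis and DNA replication genes differed by -0.13 (SD 1.19) and -0.56 (SD 0.81). The score of the 11 MYC network genes averaged 2.90 ± 0.52 in KO MK and 2.65 ± 0.31 in WT MK cells. Among these genes, Mycn averaged 114 TPM ± 79.7 in KO MK and 100 TPM ± 51.2 in WT MK cells, and Myc differed by -1.05 (SD 2.27). Mxd1, a repressor that competes with MYC for its partner MAX, averaged 22.2 TPM ± 13.5 in KO MK and 2.82 TPM ± 2.65 in WT MK cells, a difference of 2.42 (SD 1.18). Stem and progenitor markers, whose 10 genes summed to 334.2 to 2047.1 TPM in KO MK and 87.2 to 176.6 TPM in WT MK cells, moved with this comparison. The 8 granulocyte and monocyte markers summed to 271.7 to 2066.9 TPM in KO MK and 108.2 to 282.4 TPM in WT MK cells. Mpo was at 0 in all KO MK cells and Csf1r, Csf3r, Elane and Itgam in all WT MK cells. Their score, as mean log2(TPM + 1), was above the WT MK range of 1.14 to 1.49 only in KO MK B1-4 and 2, at 2.43 and 2.98. KO MK 1B, B1-3 and 1A had scores of 1.48, 1.07 and 1.03. The part of either list in the difference of the 40 factors was not tested.

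**Figure D5:**
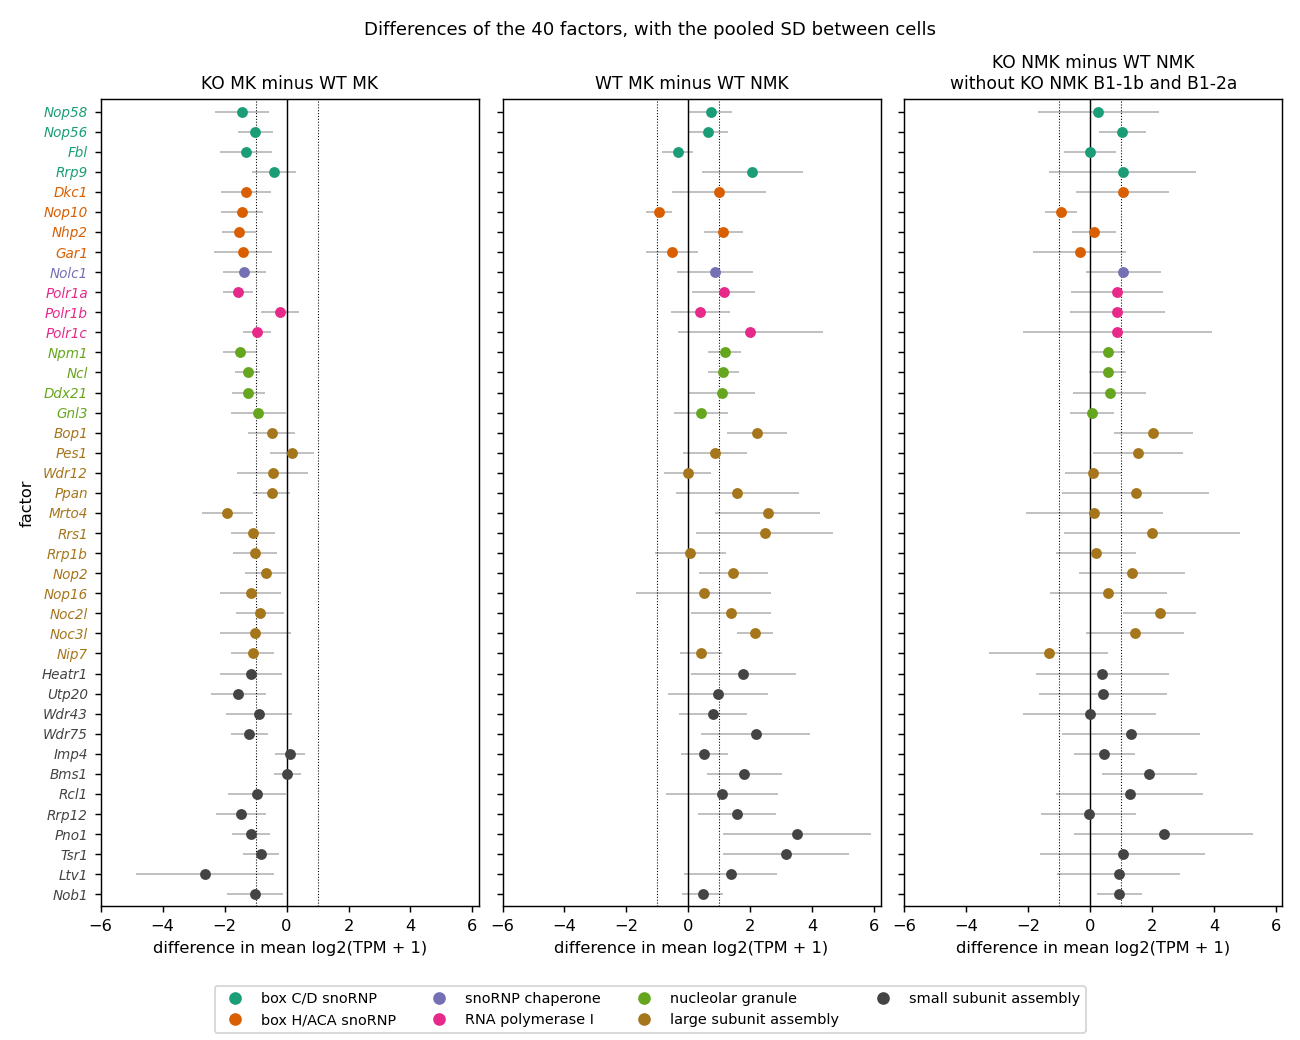
Difference in mean log2(TPM + 1) of each of the 40 factors between KO MK and WT MK, between WT MK and WT NMK, and between KO NMK and WT NMK cells without KO NMK B1-1b and B1-2a, coloured by step. Grey bars are the pooled SD between cells and dotted lines mark differences of -1 and 1: 25 factors lie at or below -1 in the first panel, 22 lie at or above 1 in the second and 16 in the third.

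WT MK cells were higher than WT NMK cells for most factors. List scores were 4.90 to 5.90 with a median of 5.68 in WT MK and 3.15 to 5.23 with a median of 4.55 in WT NMK cells, and 5 of 6 WT MK cells lay above every WT NMK cell. The difference was 1.16 (SD 0.53), and 1.30 among cells without the prefix B1, which no WT NMK cell carries. In the full table of 11 WT MK and 10 WT NMK cells the direction turned, to -0.32. There 3 factors were higher and 11 lower, beside 11.9% and 19.8% of genes. The WT MK libraries that it adds had housekeeping scores of 3.44 to 5.82, and the added WT NMK 4 had 3.47. The WT cells kept by the authors had 8.78 or higher, and the part of the added libraries in the turn was not tested. With the 5 alike WT MK libraries averaged the list score difference was 0.91, with 19 factors higher and 2 lower, beside 44.5% and 4.73% of genes. Of 40 factors, 22 were higher by 1 or more and 0 lower, where 37.4% of the 11562 genes compared were higher and 5.22% lower. The median difference was 1.10, beside 0.70 over all genes, and WT MK cells also had more genes above 0. Fewer transcripts captured and less RNA of these genes cannot be told apart for values listed at 0, of which WT MK cells had 0 and WT NMK cells 2 to 17 among the 40 factors. Stem and progenitor markers summed to 87.2 to 176.6 TPM in WT MK and 116.3 to 1351.9 TPM in WT NMK cells, where Cd48 and Slamf1 were at 0 throughout, and the housekeeping score differed by 0.50 (SD 0.22). Their part in this difference was not tested.

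The steps differed unevenly between WT MK and WT NMK cells. Small subunit factors differed most, by 1.59 (SD 0.65), followed by large subunit factors with 1.30 (SD 0.83), RNA polymerase I with 1.17 (SD 0.88), the granule with 0.94 (SD 0.46), the chaperone Nolc1 with 0.86 (SD 1.23) and box C/D snoRNPs with 0.77 (SD 0.61). Box H/ACA snoRNPs differed by 0.15 (SD 0.68), with 2 of their proteins above and 2 below 0. This value turned to -0.11 without WT NMK 1B and to -0.18 with the 5 WT MK libraries averaged. Nop10 had 1158.8, 1472.1 and 1768.6 TPM as the lowest, median and highest value in WT MK cells, against 1516.7, 3044.6 and 4810.3 TPM in WT NMK cells. It differed by -0.96 (SD 0.42), and of the 40 factors it alone was below 0 by more than its SD. Nhp2 had 502.5, 1281.6 and 1543.1 TPM in WT MK, against 201.9, 503.5 and 902.3 TPM in WT NMK cells, a difference of 1.12 (SD 0.63), or 0.66 with the 5 WT MK libraries averaged. B1-1 was the single WT MK cell inside the WT NMK range of Nhp2.

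Small subunit factors varied widely in WT NMK cells, where Rrp12 was at 0 in 6 of 9 cells, and Nob1, Imp4 and Wdr43 in 0. Pno1 had 152.7, 289.6 and 356.7 TPM as the lowest, median and highest value in WT MK, against 0, 57.4 and 211.3 TPM in WT NMK cells, of which 2 of 9 were at 0. Its difference was 3.50 (SD 2.40). Tsr1, a GTPase-like factor of the late small subunit, differed by 3.15 (SD 2.04), with 4 of 9 WT NMK cells at 0; its exons overlap those of Srr on the other strand by 1240 bases, and the strand setting of the counting is not given. Mrto4 differed by 2.56 (SD 1.70), Bop1 by 2.21 (SD 0.97), Rrp9 by 2.06 (SD 1.63) and Polr1c by 2.00 (SD 2.34). Noc3l was at 2.9 to 7.1 TPM in WT MK and 0 to 2.6 TPM in WT NMK cells and was the 1 factor with every WT MK cell above every WT NMK cell, beside 4.58% of all genes. Npm1 and Ncl differed by 1.17 (SD 0.54) and 1.13 (SD 0.49). The mean of Mycn was 100 TPM ± 51.2 in WT MK cells, against 16.2 TPM ± 26.9 in WT NMK cells, a difference of 4.13 (SD 1.97), and the score of mitosis genes differed by 2.07 (SD 1.9). Of the 94 further pathway genes, 54 were higher by 1 or more and 0 lower, beside 37.4% and 5.22% of all genes. At a mean of 10 TPM or more, the genes farthest from 0 in each of their 3 lists were Utp23 at 3.71 (SD 2.19), Rrp8 at 2.62 (SD 1.56) and Rrn3, the initiation factor of RNA polymerase I, at 2.45 (SD 1.70).

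KO NMK cells were higher than WT NMK cells once KO NMK B1-1b and B1-2a were left out. The list scores of those 2 cells were 2.76 and 1.46, and the other 11 KO NMK cells had 4.28 to 6.15, against 3.15 to 5.23 in WT NMK cells. Over all 13 KO NMK cells the difference was 0.28 (SD 1.06), with 9 factors higher and 3 lower by 1 or more, where 12.8% of the 12835 genes compared were higher and 13.3% lower. Without the 2 cells it was 0.76 (SD 0.57), with 16 factors higher and 1 lower, where 24.1% of genes were higher and 7.62% lower. The median of the 40 differences was then 0.87, beside 0.36 over all genes, and 5 of 11 KO NMK cells lay above every WT NMK cell. Among cells without the prefix B1, 8 KO NMK and 9 WT NMK, the difference was 0.90 with 19 factors higher and 1 lower, beside 22.3% and 9.57% of genes. Over all 13 cells, leaving out KO NMK 1B or 4B brought the 9 higher factors to 5.

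Differences of single factors in this comparison are given below without KO NMK B1-1b and B1-2a. Large subunit factors were higher in 7 of 12 cases and lower in 1, Nip7 at -1.35 (SD 1.92). Noc2l, a partner of Noc3l and Noc1 in the export of the early large subunit, had 28.0 to 136.7 TPM in the 11 KO NMK cells, against 0, 20.0 and 39.2 TPM as the lowest, median and highest value in WT NMK cells. Of the KO NMK cells, 9 lay above the highest WT NMK cell, and the difference was 2.24 (SD 1.19); 598 bases of its exons overlap Samd11 on the other strand. Bop1 had 8.0 to 158.6 TPM in the 11 KO NMK cells, against 1.6, 9.6 and 30.2 TPM in WT NMK cells, and differed by 2.03 (SD 1.27). Over all 13 KO NMK cells Bop1 averaged 276 TPM ± 787, set by 2889.5 TPM in B1-2a. Pno1 differed by 2.36 (SD 2.89) and Bms1 by 1.91 (SD 1.52), while Nolc1 and Nop56 differed by 1.07 (SD 1.21) and 1.04 (SD 0.74).

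Wdr75, Rcl1, Tsr1, Rrp9 and Dkc1 were also higher, by 1.30, 1.27, 1.05, 1.05 and 1.04, each less than its SD. The factors of the list named next differed by less than 1 between these groups. Nop10 had 900.2 to 2865.5 TPM in the 11 KO NMK cells, against 1516.7 to 4810.3 TPM in WT NMK cells, and differed by -0.96 (SD 0.52). It was the 1 factor lower by more than its SD. Fbl differed by -0.01 (SD 0.84), Nhp2 by 0.12 (SD 0.72), Gnl3 by 0.05 (SD 0.72) and Npm1 by 0.57 (SD 0.56). Polr1b differed by 0.87 (SD 1.54) and Polr1c by 0.86 (SD 3.05). Of the 94 further pathway genes, 30 were higher and 6 lower by 1 or more, beside 24.1% and 7.62% of all genes. Over all 13 KO NMK cells and at a mean of 10 TPM or more, the farthest from 0 within each of the 3 lists were Tbl3 at 2.82 (SD 2.03), Rrp8 at 2.02 (SD 2.13) and Rrn3 at 1.69 (SD 2.36). Mitosis genes moved with this comparison, with a score difference of 2.91 (SD 1.86), as did DNA replication genes with 1.79 (SD 0.92), housekeeping genes with 0.72 (SD 0.30) and ribosomal protein genes with -0.40 (SD 0.19). Their part in the difference of the 40 factors was not tested. Mycn averaged 6.99 TPM ± 18.8 in all 13 KO NMK and 16.2 TPM ± 26.9 in WT NMK cells, a difference of -1.29 (SD 2.16).

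Over all cells the list scores of KO MK and KO NMK cells differed by less than their SD, and the direction depended on the libraries and on the pseudocount. This comparison shares its KO MK and KO NMK cells with those above, so its values are not independent of them. The difference was -0.16 (SD 1.13), with 4 factors higher and 7 lower by 1 or more, where 34.2% of the 13365 genes compared were higher and 3.84% lower. It was 0.22 with a pseudocount of 0.1 and -1.11 in the full table. Without KO NMK B1-1b and B1-2a it differed by -0.63 (SD 0.52), with 1 factor higher and 14 lower, where 26.0% of genes were higher and 6.97% lower. The comparison of MK with NMK cells in WT gave 1.16, and the difference between these values was not tested. Within title prefixes the direction turned, at -1.10 without B1 (3 and 8 cells, 22 factors lower, beside 11.4% of genes) and 1.31 with it (2 and 5 cells, 24 higher, beside 54.6% of genes, and the 2 doubted KO NMK cells among the 5). Without KO MK B1-4 and 2 the list score differed by -0.22, with 7 factors higher and 12 lower, beside 38.8% and 6.26% of genes. Leaving out KO MK 1B alone brought the 7 lower factors to 3, and leaving out KO MK B1-4 alone brought them to 11.

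Among the 14 factors lower without KO NMK B1-1b and B1-2a were 5 snoRNP proteins and their chaperone Nolc1, and the lowest was Ltv1 at -2.19 (SD 2.47). The Ltv1 value rested on the cells at 0, KO MK B1-4 and 2. The other KO MK cells had 42.4 to 115.2 TPM, against 0 to 230.7 TPM with a median of 78.1 in the 11 KO NMK cells. Over all 13 KO NMK cells, with B1-1b and B1-2a at 0, Ltv1 differed by -1.30, and by 1.08 without KO MK B1-4 and 2. The values over all 13 cells are not to be set beside -2.19, which leaves out B1-1b and B1-2a. Nolc1 had 1.9 to 11.7 TPM in KO MK cells, against 10.5 to 71.3 TPM in the 11 KO NMK cells, and differed by -1.58 (SD 0.88). Fbl differed by -1.65 (SD 1.07), Gar1 by -1.60 (SD 1.67), Nop10 by -1.43 (SD 0.68), Nop56 by -1.40 (SD 0.73) and Dkc1 by -1.36 (SD 1.10). Noc2l had 8.2 to 48.0 TPM in KO MK, against 28.0 to 136.7 TPM in the 11 KO NMK cells, and differed by -1.73 (SD 0.80). Tsr1 was the 1 factor higher by 1 or more, at 1.28 (SD 2.34). Rrp9 had 5.4 to 31.3 TPM in KO MK, against 0 to 78.8 TPM in the 11 KO NMK cells, and differed by 0.61 (SD 2.25). Ddx21 had 14.5 to 37.5 TPM in KO MK, against 5.0 to 84.4 TPM in the 11 KO NMK cells, and differed by -0.78 (SD 0.94). Polr1c differed by 0.19 (SD 2.64). Mycn averaged 114 TPM ± 79.7 in KO MK and 6.99 TPM ± 18.8 in all 13 KO NMK cells, a difference of 5.35 (SD 1.84). The KO NMK cells B1-1b and B1-2a are in that mean, and the part of Mycn in the levels of the factors was not tested. Among further pathway genes Ddx47 at 2.82 (SD 3.36), Nifk at 1.9 (SD 3.21) and Taf1b at 1.83 (SD 2.6) were the farthest from 0 within each of the 3 lists, at a mean of 10 TPM or more over all cells.

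The spread between cells differed among the factors. The median SD of log2(TPM + 1) over the 40 factors was 0.89 in KO MK, 0.50 in WT MK, 1.62 in the 11 KO NMK and 1.33 in the 9 WT NMK cells. Npm1, Nop10 and Ncl varied least in the 11 KO NMK cells, with SDs of 0.48, 0.52 and 0.62, and Nop10, Fbl and Ncl in WT NMK cells, with 0.51, 0.51 and 0.53. Polr1c, Pno1 and Rrs1, a large subunit factor, varied most, with SDs of 3.10, 2.76 and 2.88 in the 11 KO NMK and 2.98, 3.04 and 2.78 in WT NMK cells. Polr1c was at 0 in 3 of 13 KO NMK cells and 2 of 9 WT NMK cells and reached 280.2 TPM in a KO NMK and 346.9 TPM in a WT NMK cell. In WT MK cells its SD was 0.26 and it was above 0 in every cell, a spread that the 5 alike libraries enter.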

How the data were processed

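Single cells were profiled with SMART-Seq kits, 1 library per cell. The authors deposited TPM per gene to 1 decimal, once for 46 libraries and once for the 33 left after they removed outliers. Per the submitters' processing notes, STAR 2.6.1e and featureCounts 1.6.2 were used with build mm10, after cutadapt 1.9.1 and FastQC 0.11.7. How counts became TPM, how outliers were chosen, which annotation served and whether strand was used were not given in the sources used here. With 1 fixed total per library, depth is unknown and very abundant transcripts take their share from all others.

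Groups were taken from titles and genotype labels. Of the 90 samples with labels 44 were not analysed here; 1 further column, which no sample's labels matched, was left unused. Each group counted as 1 sample, since the labels do not tie cells to animals or cultures, and no p-value is given; errors are SDs between cells. Differences are between means of log2(TPM + 1), so the pseudocount is 1, computed on the whole table and counted past 1 in genes that averaged at least 1 TPM in either group. The 40 factors, their steps, the further gene lists and the tests were chosen with earlier results of these data known, and the 94 further pathway genes are not independent of that choice. Named cell by cell were, per step and comparison, the factor with the largest difference at a mean of 10 TPM or more, and the most abundant factor of each step; other factors were named after their values were seen. Of the further pathway lists the gene with the largest difference is named, of other lists only scores and MYC network genes are given. Positions came from GENCODE M21 and windows from RefSeq tables of GRCm38.p6, matched by symbol.

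Alternatives were the full table, pseudocounts of 0.1 and 10, log2 ratios of means, cell medians, median-ratio scaling, mitochondrial and ribosomal protein genes removed, no minimum or a minimum of 10 TPM, KO NMK B1-1b and B1-2a left out, the 5 alike WT MK libraries averaged, each title prefix alone and each cell left out in turn. Leaving out KO MK B1-4 and 2, alone and with the 5 libraries averaged, was chosen after seeing the data. The scripts were tested on simulated data. Computing used Python 3.11.15, numpy 2.4.6, pandas 2.3.3 and matplotlib 3.10.9.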

Additional observations from a re-analysis of the deposited data

Results flagged for a closer look

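Within groups of 4 to 10 cells, 16 of 78 sets of values held a cell set apart by a gap of 0.4976 to 0.8186 of the range of its group. The limit used is passed by about 1 in 20 independent sets of normally spread values. These sets share cells and factors, so that rate does not apply to them directly. The values are in log2(TPM + 1). WT MK B1-1 was the low cell in 8 of the 16 sets, with 7.43 for the box H/ACA snoRNP score against 8.22 to 8.59 in the other WT MK cells. It had 6.92 for the nucleolar granule score, 3.97 for the large subunit score and 5.14 for Gnl3. Its values were 4.98 for Mrto4, 8.98 for Nhp2, 5.46 for Nop16 and 7.26 for Pno1. The other 5 WT MK cells are the ones that resemble each other closely.

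KO MK 1B was low for the box H/ACA snoRNP score, at 5.68 against 7.04 to 7.34 in the other KO MK cells. WT NMK 1B was low for the same score, at 6.06 against 8.02 to 8.60, for Dkc1, at 0.58, and for Nhp2, at 7.67. WT NMK 1A was low for the large subunit score, at 1.14 against 3.28 to 4.47, and was at 0 for Ltv1, Noc2l and Nop16; 17 of the 40 factors were listed at 0 in this cell.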

How the results depend on the processing

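Depth is unknown, groups are single samples, and the title prefix, the authors' choice of outliers and a few libraries set several values; the cause of each change below was not tested. No paired analysis was possible because replicate names identify cells and no test was made.

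For KO MK against WT MK cells, the list score difference of -1.04 was -0.60 in the full table and -1.51 without the prefix B1, and it turned to 0.14 with the prefix. The 25 lower factors became 8 in the full table, 12 with a pseudocount of 10, 15 with the 5 WT MK libraries averaged, 5 with the prefix, and 14 without KO MK B1-4 and 2 plus averaging; higher factors became 9 with the prefix. Leaving out single cells gave scores of -1.19 to -0.88, with 19 to 29 lower factors and 0 higher.

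For KO NMK against WT NMK cells, the score difference of 0.28 was 0.12 with median-ratio scaling, 0.59 with medians and 0.84 with ratios of means. The 9 higher factors became 3 with a pseudocount of 10 or median-ratio scaling, 14 with ratios of means or medians, 16 without KO NMK B1-1b and B1-2a, and 19 without the prefix. The 3 lower factors became 6 with a pseudocount of 0.1, and 1 with a pseudocount of 10, ratios of means, medians, those 2 cells left out or no prefix. Leaving out single cells gave scores of 0.13 to 0.55, with 5 to 12 higher and 2 to 4 lower.

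For KO MK against KO NMK cells, the score difference of -0.16 turned to 0.22 with a pseudocount of 0.1, and was -1.11 in the full table, -1.09 with ratios of means and -0.75 with medians. The 4 higher factors became 0 in the full table, with a pseudocount of 10 or with ratios of means, 11 with a pseudocount of 0.1, 1 without the 2 KO NMK cells or without the prefix, 24 with the prefix and 7 without KO MK B1-4 and 2. The 7 lower factors became 22 in the full table or without the prefix, 2 with a pseudocount of 10, 20 with ratios of means, 14 with medians or without the 2 KO NMK cells, 12 without mitochondrial and ribosomal protein genes or without KO MK B1-4 and 2, and 1 with the prefix, where the score differed by 1.31. Leaving out single cells gave scores of -0.43 to -0.0023, with 1 to 6 higher and 3 to 11 lower.

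For WT MK against WT NMK cells, the score difference of 1.16 turned to -0.32 in the full table, and was 1.75 and 0.60 with pseudocounts of 0.1 and 10. The 22 higher factors became 3 in the full table and 9 with a pseudocount of 10. Lower factors became 11 in the full table, 1 with ratios of means, medians or median-ratio scaling, and 2 with the 5 libraries averaged. Leaving out single cells gave scores of 1.01 to 1.30, with 21 to 26 higher and 0 to 1 lower.

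Direction also turned for single factors and steps, more than are listed here, such as Wdr43 at 2.19 within prefix B1 between KO MK and WT MK. Box H/ACA snoRNPs between WT MK and WT NMK cells turned to -0.11 without WT NMK 1B. The rest listed are steps, and factors named cell by cell, with a difference beyond its SD before the change. In the full table these were Polr1c between KO MK and WT MK, at 0.70, and between WT MK and WT NMK the box C/D snoRNPs at -1.12, the granule at -0.67, the small subunit at -0.017, Nhp2 at -2.03 and Npm1 at -0.94. Within prefix B1 they were, between KO MK and WT MK, box C/D snoRNPs at 0.37, the large subunit at 0.64, Nop16 at 1.22, Nop58 at 0.087 and Pno1 at 0.52, and Dkc1 between KO MK and KO NMK at 0.065.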
